A study of Mus musculus with 6 samples.

Results

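Bone morphogenetic proteins (BMPs) are secreted ligands of the TGF-beta superfamily, and the 10 genes described here cover 3 steps of their signalling in mouse skin. They are 5 ligand genes (Bmp2, Bmp4, Bmp6, Bmp7 and Gdf10), 2 genes of secreted antagonists (Grem1 and Chrdl1) and 3 Id genes (Id1, Id2 and Id3), which are classical transcriptional targets. They were chosen by name, with earlier results of these data known. All 10 were found among the 55291 genes of the deposited count table and passed the expression filter, which left 19971 genes. The libraries came from dorsal skin of mice at day 40, with 3 libraries of wild-type C57BL/6 mice (replicates 1 to 3) and 3 of the strain B6.Cg-Fbn1Tsk/J (replicates 4 to 6). The labels write the genotype of the second group as Fbn1+/-, and it is called Tsk here after the tight-skin allele of Fbn1, the gene of the microfibril protein fibrillin 1. Tsk is known as a duplication within Fbn1 that is inherited in the germline, so every cell type of the skin carries it, and reading the label as heterozygous for that allele is an assumption. The labels name no treatment, and they do not say whether each library came from its own animal, so the tests speak of the spread of these libraries, which may be technical.

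BMP ligands bind pairs of type I and type II serine/threonine kinase receptors, which phosphorylate Smad1, Smad5 and Smad9; these join Smad4 and enter the nucleus. Antagonists such as gremlin and chordin family proteins bind the ligands outside the cell and keep them from their receptors. Id proteins carry a helix-loop-helix domain but no DNA-binding region, and they hold back differentiation by pairing with E proteins. In skin, BMP signals are known to keep hair follicle stem cells at rest and to guide differentiation of the hair shaft, while fibrillin microfibrils are known to bind BMP precursors in the extracellular matrix.

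The promoters of Id3, Bmp6 and Id2 are shown because Id3 and Bmp6 rose in Tsk skin while Id2, of the same family as Id3, did not pass the test. Each line gives the 250 bases before the transcript start from RefSeq (GRCm38.p6, the assembly behind mm10), 5′ to 3′ on the strand of the gene. Capitals mark GGCGCC, a GC-rich core bound by Smad1 and Smad5 that reads the same on both strands, and CAGAC or its reverse complement GTCTG, the Smad-binding element of Smad3 and Smad4.
Id3 (chr4:136143572-136143821, plus strand): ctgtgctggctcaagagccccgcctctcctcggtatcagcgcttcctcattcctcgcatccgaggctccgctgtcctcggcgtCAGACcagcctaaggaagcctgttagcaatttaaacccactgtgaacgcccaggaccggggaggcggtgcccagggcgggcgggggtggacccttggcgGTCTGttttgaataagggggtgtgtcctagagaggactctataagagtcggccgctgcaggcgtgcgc
Id2 (chr12:25096093-25096342, minus strand): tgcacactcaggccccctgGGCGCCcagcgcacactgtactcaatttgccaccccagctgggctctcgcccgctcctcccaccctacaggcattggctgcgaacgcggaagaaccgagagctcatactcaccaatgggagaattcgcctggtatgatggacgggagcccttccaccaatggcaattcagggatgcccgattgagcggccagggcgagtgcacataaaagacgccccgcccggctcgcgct
Bmp6 (chr13:38345466-38345715, plus strand): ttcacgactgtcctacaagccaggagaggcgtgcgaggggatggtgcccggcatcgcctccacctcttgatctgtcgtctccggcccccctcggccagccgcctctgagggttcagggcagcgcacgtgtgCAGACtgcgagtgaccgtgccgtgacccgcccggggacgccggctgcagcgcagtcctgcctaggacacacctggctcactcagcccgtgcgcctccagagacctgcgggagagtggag

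The Id3 window held CAGAC 167 bases and GTCTG 68 bases before the start and no GGCGCC. The Id2 window held GGCGCC 231 bases before the start and no CAGAC on either strand. The Bmp6 window held 1 CAGAC, 119 bases before the start. Each of these windows lies inside the GENCODE M21 span of its gene, so the distances hold for the RefSeq start used alone. Of the 6 members with an entry in the RefSeq table (Bmp4, Bmp6, Gdf10, Grem1, Id2 and Id3), Gdf10 held 1 CAGAC, Grem1 held 1 of each sequence and Bmp4 held neither. Across 32851 promoters of the same length, 9.59% held GGCGCC and 42.2% held CAGAC on one strand or the other, so the matches are a description of these letters.

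Fbn1, the gene that carries the Tsk allele, was higher in every Tsk library. Its level in CPM, which are counts per library total after TMM scaling, was 303 ± 45.6 in wild type against 1761 ± 302 in Tsk (mean ± SD over 3 libraries). The log2 fold change was 2.54 ± 0.24 (± SE here and below; edgeR adjusted p = 0.00401). This level separates the groups, but it goes against a reading of Fbn1+/- as the loss of a copy, and counts per gene do not show the duplication, so the allele itself was not checked. Library totals ran from 17561271 to 19219622 counts, and the Y-linked gene Ddx3y held 1070 to 1394 counts in every library. Over all 19971 genes, 683 passed the threshold of an adjusted p under 0.05, 544 higher and 139 lower in Tsk, which is 3.42% of the genes, while 20.1% had an unadjusted p under 0.05. Without wild-type replicate 3 that count was 63, the lowest when 1 library was left out, and without wild-type replicate 1 it was 1381, the highest; it was 328 without wild-type replicate 2, 402 without Tsk replicate 5 and 388 without Tsk replicate 6.

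The comparison asked how genes of BMP signalling differed between Tsk and wild-type skin. Of the 10 genes, 3 rose in Tsk skin: the antagonist gene Chrdl1, the target gene Id3 and the ligand gene Bmp6. No member was lower with edgeR or with any other tool tried, and the other 7 members also had an unadjusted edgeR p above 0.05. Against this count of 3 higher of 10 stands a background of 2.72% of all tested genes called higher. The same 3 were those in which all Tsk libraries lay above all wild-type libraries, where 14.1% of all tested genes were separated in that direction. The median log2 fold change of the 10 was 0.28, against -0.03 over all tested genes. Because the 10 were chosen with earlier results of these data known, these comparisons with all tested genes are a description and no test. The largest change was that of Chrdl1, while its fellow antagonist Grem1, the ligands Bmp2, Bmp4, Bmp7 and Gdf10 and the target genes Id1 and Id2 did not pass.

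**Figure D1:**
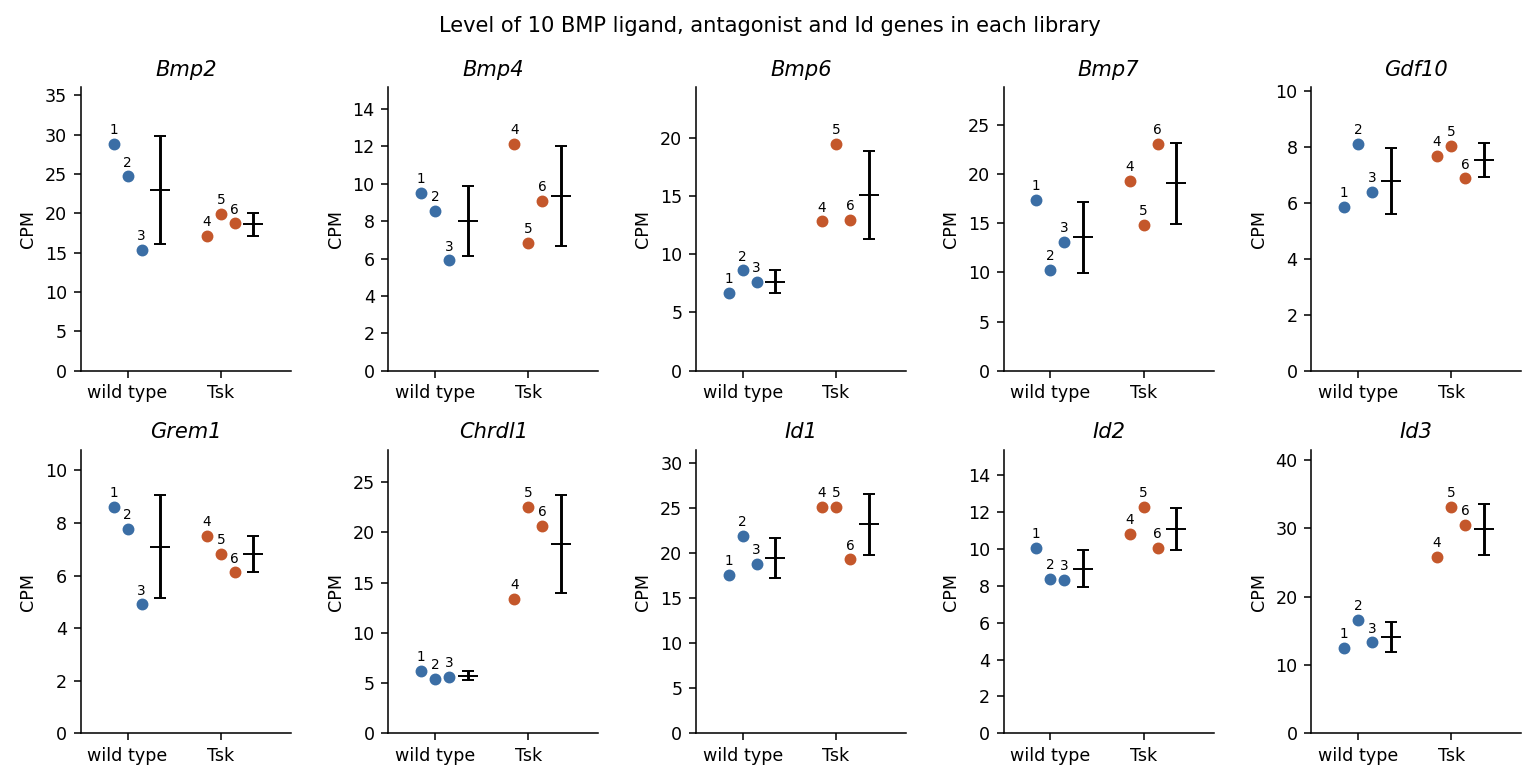
Level of each of the 10 genes, in CPM after TMM scaling, in each library (points, with the replicate number), with the mean and SD of each group of 3 beside them; the CPM axes start at 0 and differ between genes. In Chrdl1, Id3 and Bmp6 every Tsk point lies above every wild-type point, and in the other 7 genes the groups overlap.

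Bmp6, on chromosome 13 from 38345107 to 38500302 on the plus strand (mm10), encodes a BMP that is also known as a regulator of iron balance through hepcidin in the liver. It stood at 6.68, 8.62 and 7.64 CPM in wild-type replicates 1, 2 and 3 and at 12.8, 19.4 and 12.9 CPM in Tsk replicates 4, 5 and 6. Tsk replicate 5 was the highest, and the other Tsk libraries lay close together above all of the wild-type ones. The rise was 0.98 ± 0.20 on the log2 scale (edgeR adjusted p = 0.0381), with a 95% confidence interval of 0.52 to 1.44. This call was the least firm of the 3: with 1 library left out it passed in 1 of 6 fits (without wild-type replicate 1), and the fold change was lowest, at 0.75, without Tsk replicate 5. Its last exon overlaps that of Txndc5, a protein disulfide isomerase gene on the opposite strand, over 224 bases or 5.74% of the exonic length of Bmp6, and the strand setting of the counting is not given in the sources used here. Txndc5 itself rose by 0.70 ± 0.14 (edgeR adjusted p = 0.0331), and its part in the Bmp6 count was not tested.

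Bmp7, a ligand expressed in epithelia and hair follicles, stood at 17.4, 10.2 and 13.1 CPM in wild type and 19.3, 14.8 and 23.1 CPM in Tsk. The groups overlapped, since wild-type replicate 1 lay above Tsk replicate 5. The log2 fold change was 0.49 ± 0.23 (edgeR adjusted p = 0.273), with an interval of -0.03 to 1.00. Bmp4, the ligand of the follicle mesenchyme and dermis closest in sequence to Bmp2, stood at 9.52, 8.55 and 5.90 CPM in wild type and 12.1, 6.83 and 9.08 CPM in Tsk. Its fold change of 0.22 ± 0.25 (edgeR adjusted p = 0.681) carried an interval of -0.35 to 0.80 and was -0.008 without Tsk replicate 4, the highest of the 6 libraries.

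Bmp2 was the ligand gene with a fold change below 0. It stood at 28.8, 24.7 and 15.3 CPM in wild type and at 17.1, 19.9 and 18.7 CPM in Tsk. The wild-type libraries spanned the Tsk ones on either side, with wild-type replicate 3 the lowest and wild-type replicate 1 the highest of all. The log2 fold change was -0.31 ± 0.21 (edgeR adjusted p = 0.478; interval -0.79 to 0.18), and without wild-type replicate 3 it was -0.52. Gdf10, also called BMP3B, is a divergent member of the family that is known to oppose other BMPs in frog embryos. It stood at 5.84, 8.10 and 6.40 CPM in wild type and 7.67, 8.04 and 6.87 CPM in Tsk, and all 3 Tsk values lay within the wild-type range. Its fold change was 0.15 ± 0.18 (edgeR adjusted p = 0.694; interval -0.26 to 0.56).

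Chrdl1 encodes chordin-like 1, also called ventroptin or neuralin, a secreted protein with chordin-type cysteine-rich repeats that binds BMP4 among other ligands. The gene lies on chromosome X from 143285674 to 143394262 on the minus strand. It stood at 6.23, 5.44 and 5.59 CPM in wild-type replicates 1, 2 and 3 and at 13.4, 22.6 and 20.7 CPM in Tsk replicates 4, 5 and 6. The wild-type libraries lay within 1 CPM of each other, and the lowest Tsk library, replicate 4, was still clear of them. The means were 5.76 ± 0.420 and 18.9 ± 4.86 CPM (SD, n = 3 each), and the rise was 1.71 ± 0.21 on the log2 scale (edgeR adjusted p = 0.00792) with an interval of 1.23 to 2.19. Leaving out single libraries kept the call in 5 of 6 fits, and it missed at an adjusted p of 0.0545 (edgeR) without wild-type replicate 3, where the fold change was 1.70.

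Grem1 encodes gremlin 1, a cystine-knot antagonist of BMP2, BMP4 and BMP7. It stood at 8.62, 7.78 and 4.91 CPM in wild type and at 7.52, 6.83 and 6.12 CPM in Tsk, all 3 Tsk libraries lying between the wild-type extremes. The log2 fold change was -0.06 ± 0.23 (edgeR adjusted p = 0.918), and its interval of -0.58 to 0.45 leaves out a change of the size seen for Chrdl1. Its sign turned, to 0.20, when libraries were scaled by their totals alone, and also without wild-type replicate 1 or 2 or Tsk replicate 6, at 0.13, 0.01 and 0.01.

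Id3, on chromosome 4 from 136143497 to 136145755 on the plus strand, encodes inhibitor of DNA binding 3. It stood at 12.5, 16.7 and 13.3 CPM in wild type and at 25.9, 33.2 and 30.5 CPM in Tsk. The lowest Tsk library lay well above the highest wild-type library, and no library stood apart within its group. The rise was 1.08 ± 0.16 (edgeR adjusted p = 0.0134; interval 0.72 to 1.43). It was called in 5 of 6 fits that each dropped a library, missing without wild-type replicate 3 at 1.05 (edgeR adjusted p = 0.0709).

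Id1, a single-block gene of 1160 exonic bases on chromosome 2, and Id2, on chromosome 12, are the close relatives of Id3 that share its helix-loop-helix domain. Id1 stood at 17.6, 21.9 and 18.8 CPM in wild type and 25.1, 25.2 and 19.3 CPM in Tsk, where replicate 6 fell below wild-type replicate 2. Id2 stood at 10.1, 8.36 and 8.32 CPM in wild type and 10.8, 12.3 and 10.1 CPM in Tsk, so that Tsk replicate 6 and wild-type replicate 1 coincided to 3 digits. The fold changes were 0.26 ± 0.15 for Id1 (edgeR adjusted p = 0.394; interval -0.09 to 0.60) and 0.31 ± 0.16 for Id2 (edgeR adjusted p = 0.314; interval -0.05 to 0.67). Id1, Id2 and Id3 all stood above 0, where 47% of all tested genes did. They also did so under each of the 15 alternatives tried, which refit the same libraries.

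Ratios between genes within a library do not depend on how libraries are scaled, and 7 pairs were compared, chosen with the fold changes known. Id3 counts per Id1 count were 0.712, 0.760 and 0.709 in wild type and 1.03, 1.32 and 1.58 in Tsk, so Id1 was the more counted gene in every wild-type library and Id3 in every Tsk library. Id3 per Id2 was 1.24, 1.99 and 1.60 in wild type and 2.39, 2.70 and 3.03 in Tsk, again without overlap. Id2 per Id1 was 0.466 ± 0.0975 in wild type against 0.481 ± 0.0456 in Tsk (SD, n = 3 each), with overlapping groups. Chrdl1 per Grem1 was 0.723, 0.700 and 1.14 in wild type and 1.78, 3.31 and 3.38 in Tsk. Bmp6 per Bmp2 was 0.232, 0.349 and 0.498 in wild type and 0.748, 0.976 and 0.691 in Tsk. Both of these pairs were separated as well, while Bmp6 per Bmp4 and Bmp4 per Bmp2 overlapped. The two-sided exact permutation test gave p = 0.1 for each of the 4 separated pairs, the smallest value that 3 libraries against 3 allow, and 0.175 after Benjamini-Hochberg adjustment over the 7 pairs. A design of this size cannot reach the threshold, so the test says nothing for or against a difference.

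**Figure D2:**
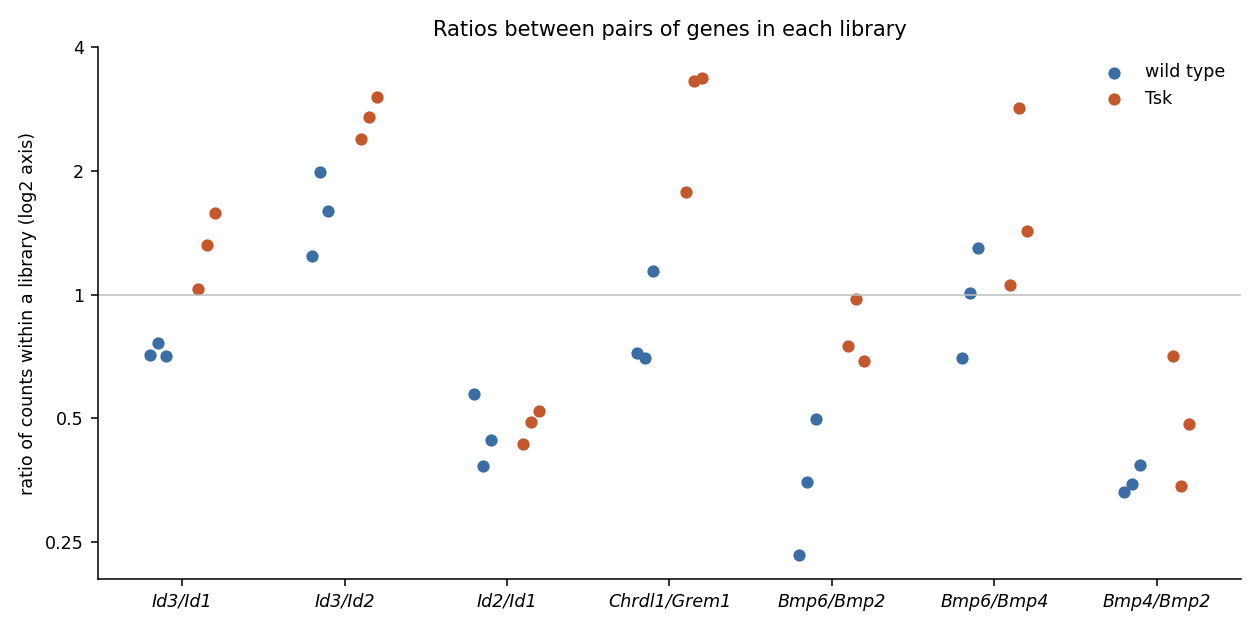
Ratio of the counts of the first to the second gene of each pair within each library (points), on a log2 axis, for 3 wild-type and 3 Tsk libraries. The groups are apart for Id3/Id1, Id3/Id2, Chrdl1/Grem1 and Bmp6/Bmp2 and overlap for the other 3 pairs.

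Levels were compared between genes per kilobase of GENCODE M21 exons, since longer genes collect more reads. On this scale of level, Id1 was the highest of the 10 in wild type at 16.7 ± 1.92 CPM per kilobase (SD, n = 3), clear of Id3 at 7.90 ± 1.23 and Bmp2 at 6.46 ± 1.94, which overlapped each other. Id2, Bmp4 and Bmp7 followed at 3.38 to 3.66 with overlapping libraries, then Bmp6, Grem1 and Gdf10 at 1.30 to 1.96, and Chrdl1 was the lowest at 0.852 ± 0.0621, below every Gdf10 library. In Tsk, Id1 (20.0 ± 2.90) and Id3 (16.7 ± 2.07) overlapped and stood above Bmp2 at 5.23 ± 0.397. Chrdl1, at 2.79 ± 0.719, lay above every library of Grem1 (1.64 ± 0.169) and Gdf10 (1.45 ± 0.115). Of the length-scaled reads of the 5 ligand genes, Bmp2 held 41.6, 40.7 and 32.2% in wild type and 24.3, 29.7 and 26.8% in Tsk. The share of Bmp6 ran from 8.78 to 14.6% in wild type and from 16.6 to 26.4% in Tsk. Of the reads of the 3 Id genes on the same scale, Id3 held 27.8 ± 1.44% in wild type against 40.6 ± 4.72% in Tsk (SD, n = 3 each).

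The 10 genes were all lowly to moderately expressed, with 79 (Grem1) to 710 (Id3) counts per library, so that counting alone gives an error of 3.75 to 11.3% on a single value. Counts of 6 members were whole numbers within 0.01, the 3 that rose among them, while those of Bmp4, Bmp7, Gdf10 and Grem1 were not. Bmp2, Bmp7, Grem1 and Id1 lie on chromosome 2 with Fbn1, at 8.04, 47.4, 11.5 and 27.2 megabases from it. In a congenic strain, DNA around the selected allele comes from the donor strain, and for genes in such a segment its effect cannot be told apart from that of the Tsk allele. None of these 4 genes passed the test, and the 3 that rose lie on chromosomes 4, 13 and X. Whether donor DNA had a part in the rise of those 3 was not tested.

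Of 67 other genes of BMP signalling, listed with earlier results known, 55 were tested, of which 6 rose and 1 fell. Of all tested genes, 2.72% were called higher and 0.696% lower. The median log2 fold change of the 55 was 0.23. Among the other ligands, 7 of 16 were tested, and Bmp8a rose while Mstn fell. Of these 7 ligands, 3 had fold changes above 0, at a median of -0.38. Bmp8a, a ligand of germ cells and fat, held 2, 1 and 2 counts in wild type and 22, 31 and 70 counts in Tsk (log2 fold change 4.20 ± 0.62, edgeR adjusted p = 0.0138). Its fold rests on few counts, and reads may be shared with Bmp8b, a close copy of it that held 2 to 5 counts in every library. Oxct2a, a protein-coding gene on the same strand, lies within the span of Bmp8a without sharing an exonic base, with counts of 2, 0 and 0 in the wild-type libraries against 16, 10 and 47 in those of Tsk. Its part in the Bmp8a count was not tested. Mstn encodes myostatin, the inhibitor of muscle growth, which signals through activin receptors and Smad2 and Smad3. It stood at 302, 360 and 356 CPM in wild type and 153, 83.1 and 95.7 CPM in Tsk, and it fell by 1.62 ± 0.24 on the log2 scale (edgeR adjusted p = 0.0136).

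Of the other extracellular modulators, 16 of 19 were tested, with 4 higher and 12 not passing, where 2.72% of all tested genes were called higher. Of the 16, 11 had fold changes above 0, at a median of 0.23. Named after its values were seen, the antagonist gene Nog stood at -0.76 ± 0.27 (edgeR adjusted p = 0.166). Summed levels were 460 to 530 CPM in wild type and 950 to 1205 CPM in Tsk, of which Fstl1 alone held 158 and 568 CPM on average. Nbl1, the gene of the DAN antagonist, rose by 1.32 ± 0.19 (edgeR adjusted p = 0.0136), with 29.4 ± 3.24 CPM in wild type against 73.2 ± 19.5 CPM in Tsk. Kcp, which encodes the chordin-related protein kielin, known in the mouse to enhance BMP signalling, rose by 1.42 ± 0.25 (edgeR adjusted p = 0.0220), with 4.44 ± 1.23 CPM against 11.9 ± 2.81 CPM. Fstl1, the gene of a secreted follistatin-like glycoprotein that binds BMP4, rose by 1.84 ± 0.25 to 568 ± 93.9 CPM (edgeR adjusted p = 0.0105) and was the most abundant gene of the list in Tsk. Bmp1, a metalloprotease that cleaves chordin and procollagens and is no BMP ligand despite its name, rose by 1.23 ± 0.19. Each of these 4 genes missed the threshold without wild-type replicate 3, and Kcp also did so without Tsk replicate 6. Bmp8a, Mstn and Dlx3, a target described below, were also lost without wild-type replicate 3. Kcp overlaps Gm26627, an antisense gene, so its reads are uncertain.

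None of the 13 receptors and co-receptors tested passed with edgeR, at a median of -0.01, while 5 had an unadjusted p under 0.05, 3 passed with DESeq2 and 0 with limma-voom. The most abundant were Hjv, the hemojuvelin co-receptor of muscle and liver, at -0.49 ± 0.23 (edgeR adjusted p = 0.271), and the type II receptor gene Bmpr2 at 0.04 ± 0.16 (edgeR adjusted p = 0.918). Without wild-type replicate 1, Hjv passed as lower, at -0.67 (edgeR adjusted p = 0.0433). Named after their values were seen, the endothelial receptor genes Acvrl1 and Eng stood at 0.78 ± 0.20 (edgeR adjusted p = 0.0755) and 0.78 ± 0.19 (edgeR adjusted p = 0.0644). Also named after their values were seen, Tgfbr3 stood at 0.91 ± 0.21 (edgeR adjusted p = 0.0561), Acvr2b at -0.40 ± 0.14 (edgeR adjusted p = 0.164) and Rgma at -0.32 ± 0.12 (edgeR adjusted p = 0.190). Of the 13, 3 had separated groups with Tsk above, where 14.1% of all tested genes did, and 2 with Tsk below. The share of all tested genes separated with Tsk below was not computed. Of all tested genes, 20.1% had an unadjusted edgeR p under 0.05. The 6 Smad and Smurf genes stood at a median of 0.26. None passed with edgeR, 3 had an unadjusted p under 0.05, and 0 passed with DESeq2 or limma-voom, with Smad5 at 0.12 ± 0.11 and Smad4 at 0.06 ± 0.11. Of the 3 E protein genes, partners of the Id proteins, none passed with edgeR, 1 had an unadjusted p under 0.05, and 1 passed with DESeq2 and 0 with limma-voom. The most abundant of them were Tcf4 at 0.44 ± 0.11 (edgeR adjusted p = 0.0755) and Tcf12 at 0.11 ± 0.12. Tcf4 passed as higher with library totals alone (0.71, edgeR adjusted p = 0.0171), without wild-type replicate 1 (0.48, edgeR adjusted p = 0.0497) and with DESeq2 (0.44, adjusted p = 0.0144).

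Beside Id1, Id2 and Id3, all 10 other BMP target genes tested, Id4 among them, had fold changes above 0, where 47% of all tested genes did. The list was drawn up with earlier results of these data known. The 15 alternatives gave the same signs, but they refit the same libraries and are no independent evidence. These target genes had a median of 0.66 and summed levels of 52.9 to 57.3 CPM in wild type and 79.8 to 101 CPM in Tsk. Of these, 1 passed, the homeobox gene Dlx3 of the hair matrix and upper epidermis, at 1.87 ± 0.29 (edgeR adjusted p = 0.0159). It stood at 3.00, 3.11 and 2.55 CPM in wild type and 15.2, 7.34 and 9.08 CPM in Tsk. Named after their values were seen, Id4 (0.82 ± 0.22, edgeR adjusted p = 0.0814), the inhibitory Smad gene Smad6 (0.77 ± 0.19, edgeR adjusted p = 0.0691) and the Notch and BMP target Hey1 (0.81 ± 0.23, edgeR adjusted p = 0.0916) had separated groups without passing. The target genes are also controlled by other pathways, and several mark single cell types of the skin.

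**Figure D3:**
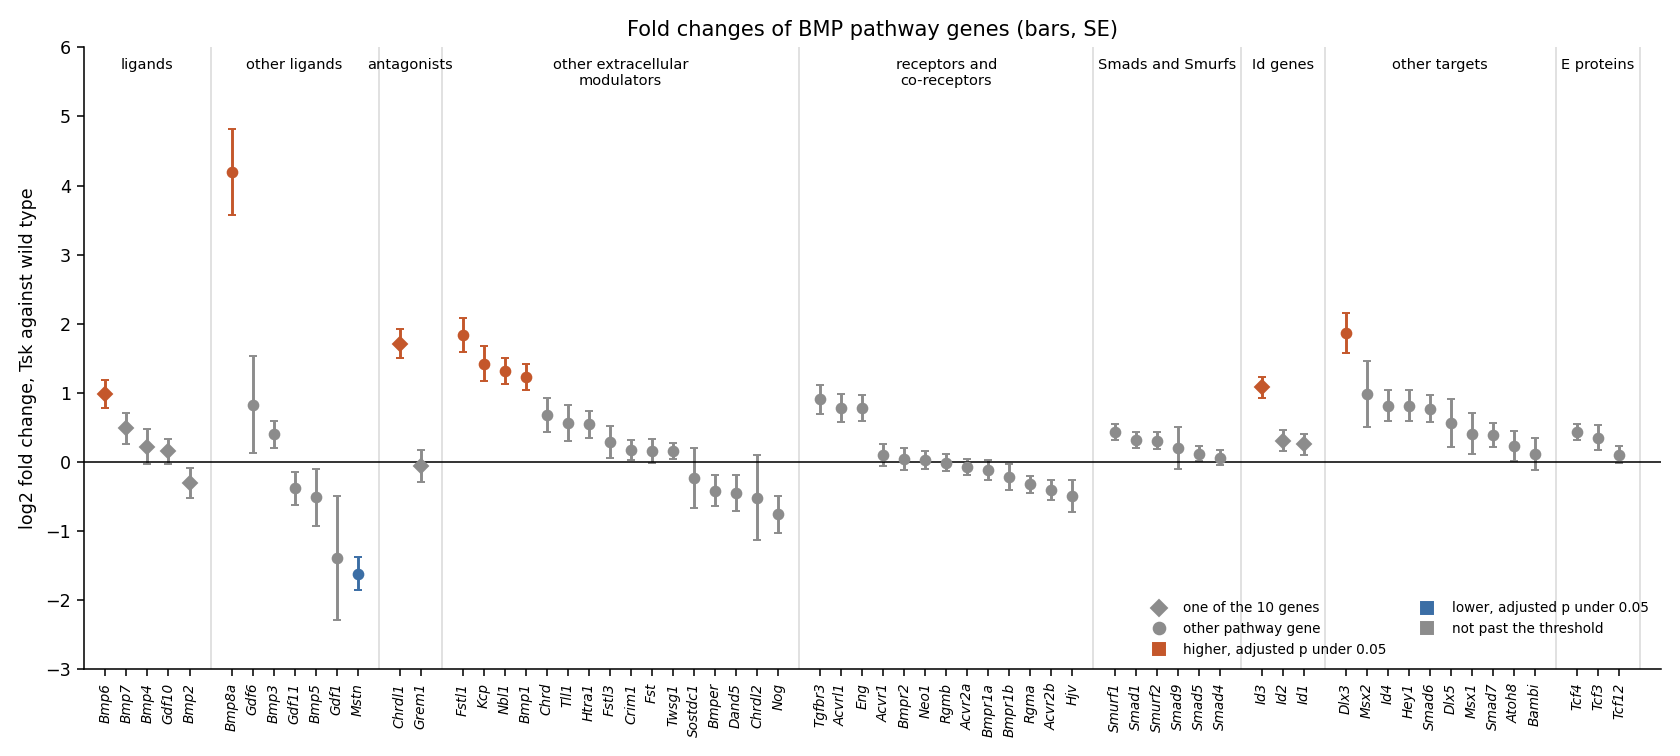
Log2 fold change of Tsk against wild type (y axis) with its SE (bars) for the 65 tested genes of BMP signalling, in groups by role and ordered by size within each. Red marks genes that rose and blue the 1 gene that fell, Mstn, at an edgeR adjusted p under 0.05; diamonds are the 10 genes, and the 3 red diamonds are Bmp6, Chrdl1 and Id3.

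In whole skin, more cells of a type and more RNA per cell cannot be told apart, and markers of several cell types moved between the groups. Summed levels of 10 fibroblast markers were 6250 to 10974 CPM in wild type and 18466 to 42253 CPM in Tsk (median log2 fold change 1.22; 1 of 10 higher by edgeR and by limma-voom, 8 by DESeq2, and 8 at an unadjusted edgeR p under 0.05). For 10 adipocyte markers they were 397 to 610 and 692 to 3113 CPM, with Tsk replicate 5 the highest (median 2.64; 2 higher by edgeR, 1 by limma-voom, 7 by DESeq2, and 9 at an unadjusted p under 0.05). For 10 endothelial markers they were 183 to 241 and 283 to 452 CPM (median 0.88; 3 higher by edgeR and by limma-voom, 5 by DESeq2, and 9 at an unadjusted p under 0.05). The 15 skeletal muscle markers, beside which the fall of Mstn stands, summed to 166781 to 301639 CPM in wild type and 130463 to 158994 CPM in Tsk (median -0.80). Counted in either direction, edgeR and limma-voom called 0, DESeq2 called 13, and 11 had an unadjusted edgeR p under 0.05. Of all tested genes, 20.1% had such a p. Of the 15 muscle markers, 9 had separated groups with Tsk below, a direction for which no share over all tested genes was computed. Myh2, named after its values were seen, was the 1 separated with Tsk above, at 622 and 1490 CPM on average. Dermal papilla markers gave 20.8 to 29.2 and 34.6 to 43.6 CPM (2 of 9 tested higher, Corin and Lef1). Their median log2 fold change was 0.06, with 7 of 9 tested above 0. On average, Corin stood at 0.561 CPM in wild type and 6.41 CPM in Tsk, and Lef1 at 2.86 and 6.19 CPM. For hair matrix and inner root sheath, sums overlapped at 134 to 193 and 159 to 203 CPM. Most of it was Gata3, at 108 and 105 CPM on average. The median was 0.85 with 8 of 10 tested above 0 (3 higher, the keratins Krt25, Krt27 and Krt71). Dlx3 borders on this list, while Msx2 is counted both in it and among the other BMP target genes above.

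Basal epidermis overlapped at 4994 to 7759 and 3558 to 5958 CPM (0 of 7 called by edgeR, DESeq2 and limma-voom, 1 at an unadjusted edgeR p under 0.05). Suprabasal epidermis overlapped at 1985 to 2505 and 2450 to 4405 CPM (1 of 7 higher, Krtdap). Fold changes were above 0 in 0 of 7 basal markers (median -0.40) and in 5 of 7 suprabasal ones (median 0.51). The share of all tested genes above 0 was 47%. Of the 8 smooth muscle and pericyte markers, 7 had fold changes above 0 (median 0.67). By edgeR 2 were higher, Mylk and Myh11. Counted in either direction, limma-voom called 2 of the 8 and DESeq2 called 6. Their sums, 1968 to 2797 CPM in wild type and 1516 to 1796 CPM in Tsk, were dominated by Des, the desmin gene that skeletal muscle also expresses, at 2170 ± 397 and 1195 ± 110 CPM (SD, n = 3 each; not called). Without Des, left out after its values were seen, the other 7 summed to 256 to 414 CPM in wild type and 443 to 569 CPM in Tsk. Schwann cell sums overlapped (171 to 257 and 247 to 403 CPM, 1 of 7 higher, Scn7a), and macrophage sums did not (213 to 279 and 312 to 777 CPM). Fold changes stood above 0 in 7 of 7 Schwann cell markers (median 0.54) and 6 of 7 macrophage ones (median 0.84). Of the 7 macrophage markers, counted in either direction, edgeR and limma-voom called 0, DESeq2 called 3, and 5 had an unadjusted edgeR p under 0.05. Groups were separated with Tsk above in 3 of them, where 14.1% of all tested genes were. They were separated with Tsk below in 1, Cx3cr1, named after its values were seen. None of these 103 marker genes stood at 0 in every library. Their part in the changes of Chrdl1, Id3 and Bmp6 was not tested. With the muscle list and ribosomal RNA genes taken out before scaling, Chrdl1, Id3 and Bmp6 stood at 1.71, 1.08 and 0.98, as with all genes. This took out the 15 listed muscle markers alone and other muscle genes stayed in, so the part of muscle content was not tested. Ribosomal RNA genes held 6.11 to 7.81% of the counts in wild type and 2.68 to 5.46% in Tsk, lowest in Tsk replicate 5, and TMM factors were 0.823 to 1.03 in wild type and 1.06 to 1.13 in Tsk.

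**Figure D4:**
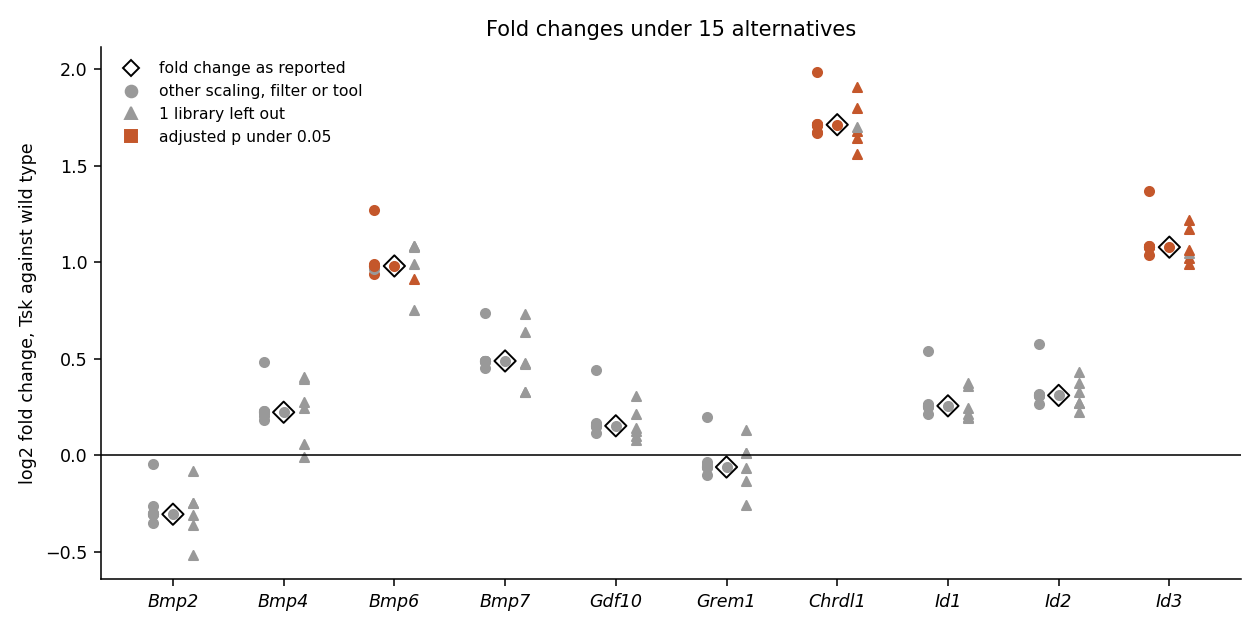
Log2 fold change of each of the 10 genes (y axis) as reported (open diamonds), under 9 other scalings, filters, tools or gene sets (circles) and with each of the 6 libraries left out in turn (triangles); red marks an adjusted p under 0.05. Chrdl1, Id3 and Bmp6 stay above 0 throughout, with Bmp6 lowest at 0.75. Bmp6 is red in 1 of its 6 triangles, and Grem1 and Bmp4 cross 0.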

How the data were processed

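RNA of dorsal skin was sequenced in 6 mouse libraries. Per the labels' protocols, ribosomal RNA was depleted and the kit was strand-specific. The submitters' processing notes name bcl2fastq 2.19.1.403, STAR, Partek 7.0 and the mm10 build. The authors deposited estimated counts per gene. Between 34.8 and 37.3% of a library's values were not whole, and these expected counts were rounded first. The counting rule is not given in the sources used here. Deposited rescaled copies were not used.

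Groups follow the labelled genotype. The test was edgeR 4.0.16 run in R 4.3.3 (TMM scaling, robust quasi-likelihood F-test, minimum count 10, minimum total 15), with Benjamini-Hochberg adjustment over all genes tested. SE is the fold change divided by the square root of F, and intervals use the same degrees of freedom. The step was tested on simulated data. Alternatives were other scalings and filters, DESeq2 1.42.0, limma-voom (limma 3.58.1), removal of the listed muscle markers and ribosomal RNA genes, and leaving out each library. Ratios used scipy 1.17.1. The protocol names no molecular identifiers, so counting errors cover counting only. The 10 genes, the lists and the ratios were chosen with earlier results of these data known. Of the pathway genes, 1 is not reported here and was left out of the lists. The rule for names took the 10 genes, Fbn1, and of each pathway list the genes past the threshold, or else the 2 most abundant; other genes are said to be named after their values were seen.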

Additional observations from a re-analysis of the deposited data

How the results depend on the processing

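Of the 10 genes, 3 passed under each other scaling and filter, DESeq2 and the removal of the listed muscle markers and ribosomal RNA genes. By limma-voom 2 passed, and Bmp6 missed at a limma-voom adjusted p of 0.0551. With 1 library left out, 0 to 3 of the 10 passed, 0 without wild-type replicate 3. Over all genes, 683 were called, and 63 to 1381 with 1 library left out. Library totals alone gave 1791 (1695 higher, 96 lower) and moved the median of all genes from -0.03 to 0.25; no filter gave 1157 and DESeq2 1544. Without wild-type replicate 1 the split was 763 higher and 618 lower. The cause of these differences was not tested. Signs turned for Grem1 with library totals alone (0.20) and, with 1 library left out, for Grem1 (range -0.26 to 0.13), Bmp4 (-0.0077 to 0.40) and Bmpr2 (-0.014 to 0.14). No paired analysis was possible because the groups share no replicate number (1 to 3 and 4 to 6). Depth and 3 libraries per group limit the precision: the intervals of the 7 genes that did not pass reached from -0.79 (Bmp2) to 1.00 (Bmp7).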
